A study of Homo sapiens with 2 samples.

Results

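The miR-532, miR-188, miR-500, miR-362, miR-501, miR-660 and miR-502 genes lie together inside CLCN5 on the X chromosome, and 10 of their mature arms were followed here in vesicle RNA. The 10 were chosen by name, as arms of 1 cluster, from 2565 miRNA probes, with their signals and differences on these same arrays already known, so those values are descriptions. The other 6 arms of the cluster that the array holds are given beside them. The samples were exosomes, small vesicles released by cells, of HuH-7, a cell line grown from a human hepatocellular carcinoma. One culture is labelled HuH-7-P, the other HuH-7-M; what the letters P and M stand for, and whether either is a single clone, is not stated in the labels. Both were grown with 10% fetal bovine serum and moved to advanced DMEM before collection, and no treatment or genotype separates them in the labels. The title of the series speaks of HCC cell lines with strong spread inside the liver. With 1 array per culture there is no replicate, no p-value and no test of any difference between the HuH-7-P culture and the HuH-7-M culture.

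A primary transcript is cut into hairpins, and each hairpin can give a mature miRNA from its 5′ side (5p) and its 3′ side (3p). miRNA hairpins that lie close together on 1 strand are often cut from a shared transcript, yet the amount of each arm also depends on cutting, loading and decay, so arms of a cluster need not move together. CLCN5 itself encodes a chloride and proton exchanger of endosomes, best known from an inherited kidney disease. Of the cluster, miR-500 has been described as raised in the blood of patients with liver cancer, and miR-501 as favouring hepatitis B virus replication. miR-188-5p is known from the choice between bone and fat cells, and miR-532-5p from silencing of the tumour suppressor RUNX3.

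In RefSeq (GRCh38.p14) all 8 hairpins lie within the bounds of CLCN5 (chromosome X, 49922596 to 50099230), on the plus strand wherever a mature arm is listed, over 11536 bases from 50003148 to 50014683. MIR532 comes first, MIR188 starts 355 bases after it, and a gap follows before MIR500A at 5283 bases, MIR362 at 5816, MIR501 at 6574 and MIR500B at 7524. MIR660 starts at 10093 bases and MIR502 at 11450. RefSeq mature sequences were found for 15 of the 16 arms, all but hsa-miR-660-5p. The sequences shown are those of the like 3p arms and of the brighter arms that the values below turn on, written 5′ to 3′ with the seed, bases 2 to 8, in capitals.

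hsa-miR-500a-3p (chrX:50008482-50008503): aUGCACCUgggcaaggauucug

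hsa-miR-502-3p (chrX:50014649-50014670): aAUGCACCugggcaaggauuca

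hsa-miR-501-3p (chrX:50009772-50009793): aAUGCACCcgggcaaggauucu

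hsa-miR-500b-3p (chrX:50010722-50010741): gCACCCAGgcaaggauucug

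hsa-miR-362-3p (chrX:50009005-50009026): aACACACCuauucaaggauuca

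hsa-miR-532-3p (chrX:50003204-50003225): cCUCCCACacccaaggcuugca

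hsa-miR-188-5p (chrX:50003517-50003537): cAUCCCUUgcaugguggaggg

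The first 4 of these share a run of 11 bases, GGCAAGGAUUC, which no other of the 2253 array miRNAs with a RefSeq mature sequence holds (4 of 2253, 0.178%; the mature RNA strand alone was searched). hsa-miR-500a-3p and hsa-miR-502-3p match in an unbroken run of 20 bases, because hsa-miR-500a-3p starts 1 base further in. They differ by U21A over the 21 bases that overlap, with the base of hsa-miR-500a-3p first and positions counted from its 5′ end. hsa-miR-501-3p differs from hsa-miR-500a-3p by U8C over 21 overlapping bases, and it has the seed of hsa-miR-502-3p. hsa-miR-500b-3p matches hsa-miR-500a-3p at 18 of 20 bases and differs from it by U8C and G9A. The 1-base shift gives hsa-miR-500a-3p a seed that none of the other arms with a sequence has. The probe sequences of the array were not used here.

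Spot medians were judged against 2 kinds of control spot. The BLANK spots read 59.7 ± 1.64 on HuH-7-P against 58.7 ± 1.63 on HuH-7-M (SD, 320 spots per array), and a spot counted as above background beyond the trimmed BLANK mean plus 2 SD, a limit of 62.3 and 61.2. Spots named No Probe were brighter, at 79.8 ± 7.20 and 81.1 ± 5.73 (SD over 85 spots), with a limit made in the same way at 86.9 and 89.9. Only 4 of the 10 members were above the BLANK limit on both arrays, against 62.1% of all miRNA probes, and 1 exceeded the No Probe limit on both, against 30.8%. Of 6 hepatocyte miRNAs, which mark the labelled cell type, 5 were above the BLANK limit on both arrays and 2 above the No Probe limit on both, miR-122-5p (99.7 and 126) and miR-885-5p (89.6 and 95.6). Their summed signal over BLANK was 119 on HuH-7-P against 149 on HuH-7-M. The 5 did not move together: on the normalized scale defined below, 2 were lower and 3 higher in HuH-7-M. Their log2 differences ran from -0.061 to 0.41, the latter that of miR-122-5p, with a median of 0.056. Of 6 blood cell miRNAs 4 were above the BLANK limit on both arrays and 0 above the No Probe limit on both, and their sum was 48.7 on HuH-7-P against 44.1 on HuH-7-M.

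On the normalized scale defined below, the member that stood furthest apart between the arrays was hsa-miR-500a-3p. It had a spot median of 131 on HuH-7-P against 72.0 on HuH-7-M, which is 71.6 and 13.2 after the BLANK mean was subtracted. No spot among the 85 No Probe spots was brighter than it on HuH-7-P, and 83 of 85 were on HuH-7-M. hsa-miR-502-3p, from the last hairpin of the cluster, behaved alike. Its spot median was 118 on HuH-7-P against 68.5 on HuH-7-M, or 58.7 and 9.72 over BLANK, with 1 of 85 No Probe spots brighter than it on HuH-7-P against 84 of 85 on HuH-7-M. Both were thus brighter than nearly all No Probe spots on HuH-7-P and dimmer than most of them on HuH-7-M, and on both arrays they were dim beside the brightest miRNAs (34176 and 27450 over BLANK). Fewer vesicles carrying a miRNA and less of it per vesicle cannot be told apart in pooled RNA.

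**Figure D1:**
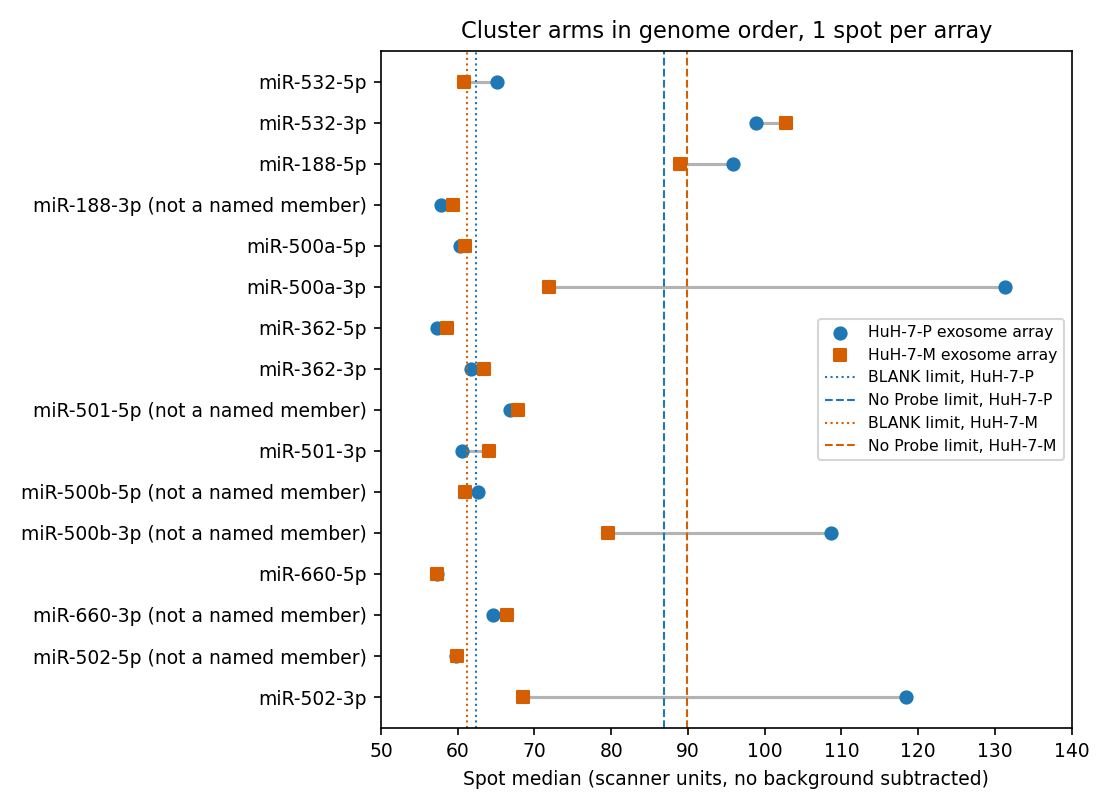
Spot median of each of the 16 cluster arms (horizontal axis, scanner units with no background subtracted), in genome order from top to bottom, on the HuH-7-P array (circles) and the HuH-7-M array (squares), 1 spot per array; dotted and dashed lines are the BLANK and No Probe limits of each array. The 3p arms of miR-500a, miR-502 and miR-500b and miR-188-5p lie beyond the No Probe limit on HuH-7-P only, miR-532-3p lies beyond it on both arrays, and most other arms lie near the BLANK limits.

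The size of these differences depended on how the dim signal was treated. As BLANK-subtracted signals without any scaling, hsa-miR-500a-3p was 5.42-fold and hsa-miR-502-3p 6.04-fold lower in HuH-7-M (log2 -2.44 and -2.59). Both HuH-7-M spots lay under the No Probe limit, and against that limit as a floor the same signals were at least 2.30-fold and 1.88-fold lower. Among the 1593 miRNAs above the BLANK limit on both arrays, 14 had a log2 ratio at or below that of hsa-miR-500a-3p and 10 at or below that of hsa-miR-502-3p. After normexp background correction fitted on the BLANK spots with an offset of 50 and quantile normalization, the scale called normalized below, the log2 differences were -0.93 and -0.85, or 1.90-fold and 1.80-fold lower. The offset adds a constant to both arrays and so draws differences of dim spots toward 0. On the normalized scale 35 of the 1593 were at or below the value of hsa-miR-500a-3p and 39 at or below that of hsa-miR-502-3p. With the No Probe floor hsa-miR-500a-3p was at least 1.48-fold and hsa-miR-502-3p at least 1.32-fold lower on the normalized scale.

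Repeated spots of 1 control probe gave the only measure of error. Over 6 control probes the pooled SD of a normexp-corrected log2 value was 0.17 within an array, so that 2 single spots differ with an SD of 0.24. By probe that SD ran from 0.061 for Negative Control 2 to 0.55 for Negative Control 1, and it was 0.17 for the No Probe spots. The differences of hsa-miR-500a-3p and hsa-miR-502-3p exceeded each of these, yet none covers the spread between cultures, extractions or arrays. Spots beside them on the array had medians near 0, but these were taken whatever their brightness, and the offset draws dim spots toward 0. Over the 1593 measured miRNAs the unscaled quartiles were -0.075 and 0.095. A median near 0 thus says little about that place on the array, and a local fault was not tested. Without scaling, 4 neighbouring miRNA spots of hsa-miR-500a-3p had a median log2 difference of -0.038 (range -0.16 to 0.018) against its own -0.94, and 8 neighbours of hsa-miR-502-3p had 0.010 (range -0.10 to 0.63) against its own -0.86.

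hsa-miR-500b-3p, not among the 10, came closest to this pair. It read 109 on HuH-7-P against 79.6 on HuH-7-M (48.9 and 20.8 over BLANK), with 1 of 85 No Probe spots brighter than it on HuH-7-P against 47 of 85 on HuH-7-M. Its log2 difference was -1.23 in BLANK-subtracted signals and -0.46 on the normalized scale, beyond the pooled spot spread of 0.24 and within the 0.55 of the most variable control probe. Its HuH-7-M spot too lay under the No Probe limit, and with that floor it was at least 1.57-fold lower in BLANK-subtracted signals and 1.20-fold on the normalized scale. Its 8 neighbouring spots, taken in the same way and with the same limit, had a median of 0.0029. In the 18 of 20 bases that it shares with hsa-miR-500a-3p lies the common run printed above, and how far each probe also binds the other arms was not tested.

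hsa-miR-501-3p, the fourth of the like 3p arms, did not show the pattern. It read 60.6 on HuH-7-P, where 94 of 320 BLANK spots were brighter, and 64.1 on HuH-7-M, where 1 of 320 was. It thus was above the BLANK limit on HuH-7-M only. Its normalized log2 difference of 0.11 was within the pooled spot spread of 0.24, and all 85 No Probe spots were brighter than it on both arrays. The HuH-7-P value was at the BLANK level. As printed above, the arm has the same seed as hsa-miR-502-3p and differs from hsa-miR-500a-3p by a single base of those that overlap. Binding of the probes to like arms was not tested.

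hsa-miR-532-3p and hsa-miR-188-5p, from the hairpins at the start of the cluster, each differed little between the arrays. The dimmer hsa-miR-501-5p and hsa-miR-660-3p, from hairpins further along, differed little on the normalized scale, where the offset draws dim spots toward 0. hsa-miR-532-3p read 98.9 on HuH-7-P against 103 on HuH-7-M (39.1 and 44.0 over BLANK), and it alone among the 16 arms exceeded the No Probe limit on both. Its normalized log2 difference was 0.11, within the pooled spot spread. hsa-miR-188-5p read 95.8 and 88.9 (36.1 and 30.2 over BLANK), with a normalized difference of -0.092, also within that spread. It lay above the No Probe limit on HuH-7-P but just under that of HuH-7-M. In BLANK-subtracted signals the log2 ratios were 0.17 for hsa-miR-532-3p and -0.26 for hsa-miR-188-5p. Those of hsa-miR-501-5p (7.06 and 9.09 over BLANK) and hsa-miR-660-3p (4.93 and 7.62) were larger, at 0.36 and 0.63.

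The other members were at or near the BLANK level. hsa-miR-532-5p, the partner arm of hsa-miR-532-3p, read 65.2 on HuH-7-P against 60.9 on HuH-7-M and was above the BLANK limit on HuH-7-P only. hsa-miR-362-3p read 61.7 and 63.4 and was above it on HuH-7-M only. Their normalized log2 differences, -0.072 and 0.071, were within the pooled spot spread of 0.24. Their signals over BLANK were small beside the offset, at 5.43 and 2.13 for hsa-miR-532-5p and 1.99 and 4.66 for hsa-miR-362-3p. The offset keeps differences of spots this dim small, so that comparison cannot show whether these arms differed between the arrays. hsa-miR-362-5p (57.3 and 58.6), hsa-miR-500a-5p (60.3 and 61.0) and hsa-miR-660-5p (57.3 and 57.3) were under the BLANK limit on both arrays. For these 3 no ratio is given. The partner arms of the pair that differed were therefore not detectable, hsa-miR-500a-5p as well as hsa-miR-502-5p (59.8 and 59.9).

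Among the remaining arms outside the 10, hsa-miR-501-5p (66.8 and 67.8) and hsa-miR-660-3p (64.7 and 66.4) were above the BLANK limit on both arrays, with normalized differences of 0.056 and 0.078. hsa-miR-500b-5p (62.7 and 61.0) was above it on HuH-7-P only, and hsa-miR-188-3p (57.9 and 59.4) on neither. Read by arm, 5 of 8 3p arms and 2 of 8 5p arms of the cluster were above the BLANK limit on both arrays, where 62.1% of all miRNA probes were, so the 3p count was near that of the whole array. The summed signal over BLANK of the 8 3p arms was 224 on HuH-7-P against 106 on HuH-7-M. The 3p arms of miR-500a, miR-502 and miR-500b, already described as lower, gave 179 and 43.7 of it, and the other 5 3p arms summed to 45.0 and 62.4. The 8 5p arms summed to 47.3 and 45.5, and all 2565 miRNA probes to 424631 and 507271. The arms that stood apart came from MIR500A, MIR500B and MIR502, and the hairpins MIR362, MIR501 and MIR660, whose arms lay near the BLANK level, are interspersed with these.

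**Figure D2:**
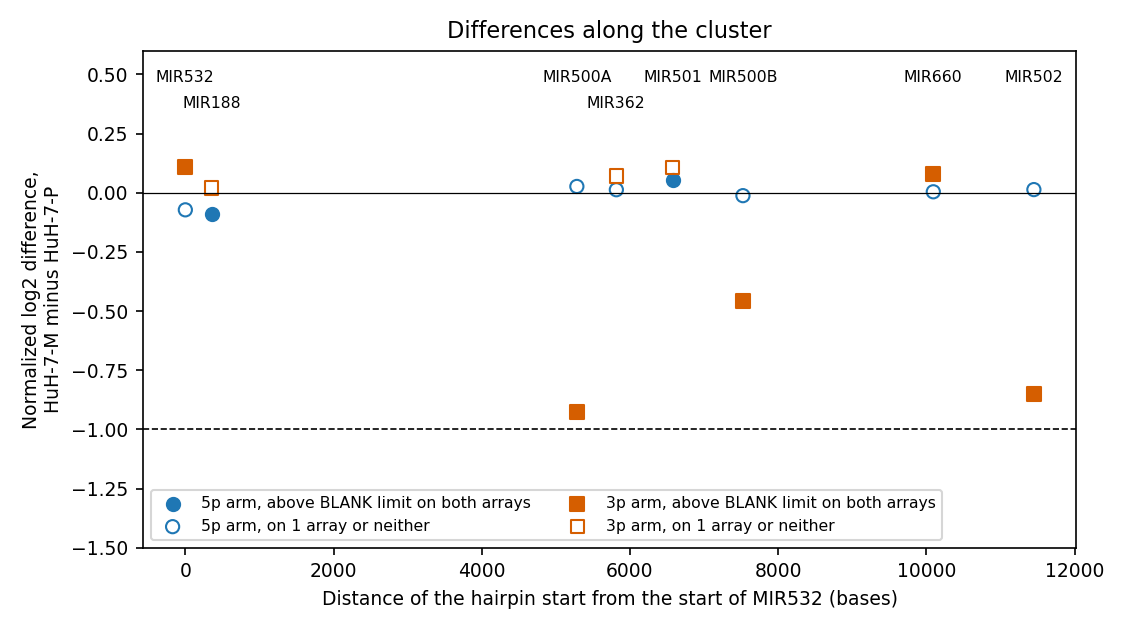
Normalized log2 difference on the vertical axis (HuH-7-M less HuH-7-P) of each cluster arm against the distance of its hairpin's start from the start of MIR532 in bases (horizontal axis); filled symbols are above the BLANK limit on both arrays, open symbols on 1 or neither, and the dashed line is 2-fold. The 3p arms of miR-500a (-0.93), miR-502 (-0.85) and miR-500b (-0.46) stand below the others, which lie between -0.092 and 0.11.

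Counted as a group, 0 of the 4 measured members were 2-fold lower and 0 were 2-fold higher in HuH-7-M on the normalized scale, where 1.76% of all measured miRNAs were at least 2-fold lower and 0.439% at least 2-fold higher. No test was possible, so these counts carry no p-value. The median of the 4 was -0.47, with 3 below 0 and 1 above, and the median of all 1593 was 0.01. In BLANK-subtracted signals without scaling, 2 of the 4 were at least 2-fold lower, hsa-miR-500a-3p and hsa-miR-502-3p, against 4.46% of all. The same 2 passed with an offset of 16 (2.51% of all), with BLANK subtraction and quantile normalization (4.71%) and on the scale of the Spike Control spots (4.58%), where the median over the 1593 was itself -0.58. They also passed in the authors' deposited table (4.16% of 1585 miRNAs with both values), which lists 58.8 on HuH-7-P against 11.1 on HuH-7-M for hsa-miR-500a-3p, and 48.2 and 8.18 for hsa-miR-502-3p. Because the members were chosen with these differences known, nothing is read from these shares.

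**Figure D3:**
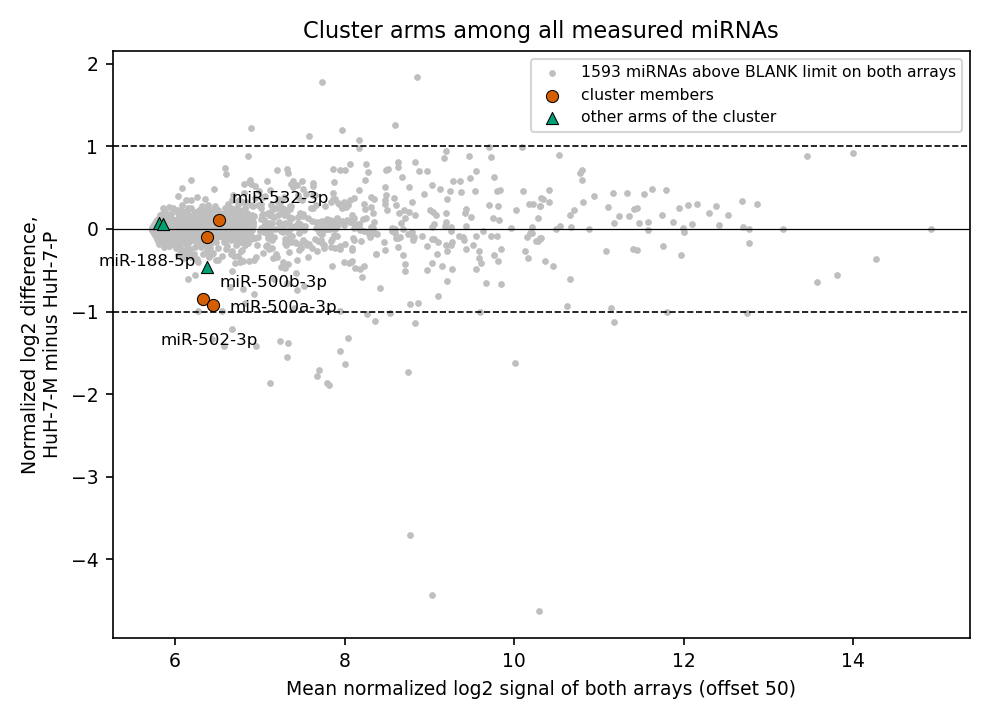
Normalized log2 difference on the vertical axis (HuH-7-M less HuH-7-P) against the mean normalized log2 signal of both arrays (horizontal axis) for the 1593 miRNAs above the BLANK limit on both arrays (grey), the 4 measured members (circles) and 3 other arms (triangles); dashed lines are 2-fold. miR-500a-3p and miR-502-3p lie just inside the lower 2-fold line, at the dim end of the arrays.

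The No Probe limit gave another view. Of the 10 members, 4 exceeded it on HuH-7-P (hsa-miR-500a-3p, hsa-miR-502-3p, hsa-miR-532-3p and hsa-miR-188-5p) and 1 on HuH-7-M (hsa-miR-532-3p), against 35.2% and 31.5% of all miRNA probes. hsa-miR-188-5p missed the HuH-7-M limit narrowly, at 88.9 against 89.9. Over the whole array 113 miRNAs were above this limit on HuH-7-P only and 19 on HuH-7-M only. The limit itself was higher on HuH-7-M, at 89.9 against 86.9 on HuH-7-P. Without scaling, the log2 differences of the 1593 measured miRNAs had a median of 0.0013. How far the unequal limits set these counts was not tested.

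The direction was the same for hsa-miR-500a-3p under all 11 other treatments of background and scale, from -2.44 to -0.024. For hsa-miR-502-3p it was the same under 10, from -2.59 to -0.76, and 0.0092 with the scanner's background column, under which the 4 measured members lay between -0.024 and 0.0092. The whole array drew together there, with quartiles of -0.014 and 0.0090 over the 1593. That column followed the spot itself, with r = 0.992 on each array across miRNA probes. hsa-miR-188-5p lay below 0 under all 11, between -0.68 and -0.0083, but on the Spike Control scale, where it was -0.68, the median of all measured miRNAs was itself -0.58. hsa-miR-532-3p was above 0 under 9. It was -0.51 on the Spike Control scale, above that median, and -0.010 with the background column.

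**Figure D4:**
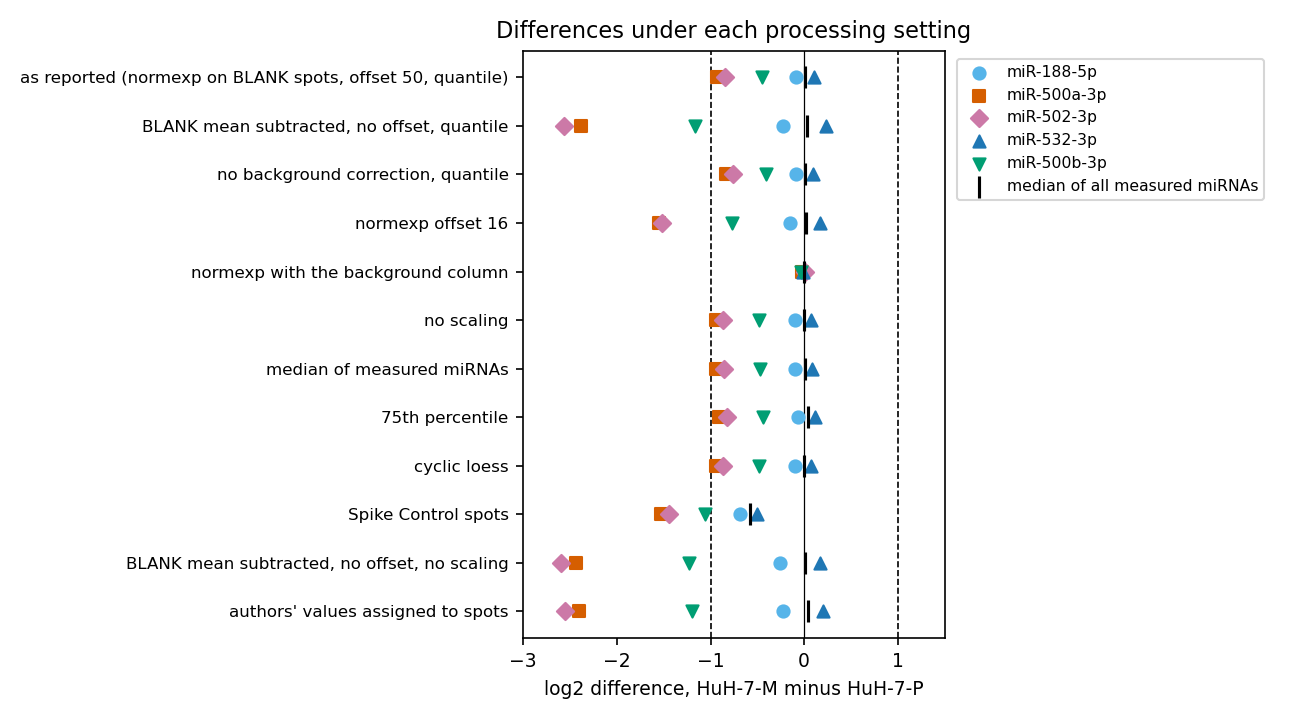
The log2 difference on the horizontal axis (HuH-7-M less HuH-7-P) of the 4 measured members and miR-500b-3p under the reported and 11 other treatments of background and scale (rows); the black tick is the median of all measured miRNAs and dashed lines are 2-fold. miR-500a-3p and miR-502-3p lie apart from the median except with the background column, and under plain BLANK subtraction they lie between -2.59 and -2.39.

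The miRNAs that passed the No Probe limit on each array, outside the cluster, whose normalized difference lay nearest to that of hsa-miR-500a-3p were miR-187-5p (1748 and 1241, -0.93), miR-7845-5p (601 and 327, -0.91) and miR-5190 (167 and 91.1, -0.90). Likeness here is a single difference between 2 arrays, and in BLANK-subtracted signals the 3 had log2 ratios of -0.51, -1.01 and -1.73, smaller in size than that of hsa-miR-500a-3p.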

How the data were processed

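Exosome RNA of 2 HuH-7 cultures was labelled with Cy5 and hybridised to 1 array each (1-colour, 3200 spots), per the labels' protocols; samples were grouped by title. Per the file headers, the authors deposited a spot median intensity and an intensity column named as background, without subtraction or scaling. The authors' deposited table of intensity values is linear and scaled to a median near 25; no source used here names its software. Scanner names were used. Table values were matched to spots by value (tolerance 1e-06): all 7 member values stood under their own identifier, and 2 of 4 for the other arms.

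Spots were corrected by normexp on BLANK spots with an offset of 50 (function nec of limma 3.58.1 in R 4.3.3), then quantile normalized. The steps were tested on simulated data, but how they treat spots as dim as the members was not tested. Limits left out the top and bottom 5% of control spots. A size of 2-fold was the threshold. The number of arrays limits precision, and no test was possible. Members and lists, and the rule for naming (all arms, seed sharers, 2 miRNAs per list, 3 nearest), were chosen with earlier results of these data known. Alternatives covered background, scaling and the limit.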

Additional observations from a re-analysis of the deposited data

How the results depend on the processing

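No paired analysis was possible because each group has 1 array, and for the same reason no replicate could be left out. The count of members at least 2-fold apart was 0 as reported and 2 with BLANK subtraction and quantile normalization, with an offset of 16, on the Spike Control scale, with BLANK subtraction and no scaling, and in the authors' deposited values; it stayed 0 under the other 9 settings tried. The median of the 4 measured members, -0.47 as reported, was -1.31 with BLANK subtraction and quantile normalization, -0.83 with an offset of 16, -0.0093 with the background column, -1.07 on the Spike Control scale, -1.35 with BLANK subtraction and no scaling, and -1.31 in the authors' deposited values. It was 0.11 above the No Probe limit, where 1 member (hsa-miR-532-3p) was left, and 0.0085 without a filter on dim probes, where all 10 members entered. Members above background on both arrays numbered 4, and 1 by the No Probe limit. Removing the offset takes away the constant that draws dim spots together, and the filter changes which members enter. Scaling to the Spike Control spots shifts every unscaled difference by the same amount. The median of all 1593 measured miRNAs was 0.0013 without scaling and -0.58 on that scale. Why the Spike Control spots differed between the arrays was not tested. The background column followed the spot itself (r = 0.992 on each array), and its effect was not tested further. Signal over background sets the limit here: on HuH-7-M the pair that stood apart read 13.2 and 9.72 over BLANK, so a small change in the BLANK level moves their ratio.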

Other observations

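Other miRNAs of the array with a seed found among the cluster arms were dim. miR-329-3p, of the imprinted chromosome 14 cluster, shares the seed of hsa-miR-362-3p and read 59.7 on HuH-7-P against 58.4 on HuH-7-M, under the BLANK limit on both. miR-6866-3p shares that of hsa-miR-188-5p and read 67.4 and 71.3, above the BLANK limit on both and with a normalized log2 difference of 0.13. Within the cluster, hsa-miR-362-5p and hsa-miR-500b-5p have the same seed and neither was above the BLANK limit on both arrays.

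Probes for 4 other miRNA clusters of the X chromosome (miR-221 with miR-222, miR-98 with let-7f, miR-106a to miR-363, and miR-424 to miR-450) numbered 31, of which 13 were above the BLANK limit on both arrays. Over all miRNA probes 62.1% were above it on both. None of the 13 was 2-fold lower or higher, on the normalized scale or in BLANK-subtracted signals. Over all 1593 measured miRNAs, 1.76% were lower and 0.439% higher on the normalized scale. In BLANK-subtracted signals 4.46% were lower and 53 of the 1593 higher, so 0 of 13 was near the shares of the whole array. Their median normalized difference was -0.044, with 7 below 0 and 6 above. Among those that passed the No Probe limit on each array, the differences of largest size were those of miR-92a-2-5p (226 and 174, -0.34) and miR-92a-3p (106 and 128, 0.34), the latter a miRNA that a chromosome 13 gene also encodes. The difference between these clusters and the one in CLCN5 was not tested, since there is 1 array per group.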
